A study of Homo sapiens with 6 samples.

Results

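The insulin-like growth factor binding proteins, IGFBP1 to IGFBP7, are secreted proteins that were looked up by gene symbol in the count table of an RNA sequencing experiment on SUM159 cells. Of the 7 names, 6 had a row among the 18398 genes of the table: IGFBP2, IGFBP3, IGFBP4, IGFBP5, IGFBP6 and IGFBP7. IGFBP1 was not analysed here. SUM159 is an established line of human breast cancer cells, triple-negative and of mesenchymal type. The 3 control libraries came from cells labelled with the pLVX vector, a lentiviral expression plasmid, and the 3 POGK libraries from stable cells carrying pLVX with POGK, which encodes a KRAB-domain protein derived from a pogo transposable element. Per the labels, both groups grew in Ham's F12 supplemented with serum (5%), insulin (5 µg/ml) and hydrocortisone (1 µg/ml). The labels do not state whether the stable cells are 1 clone or a mixed population. The question put by the series was which genes POGK regulates.

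As background, IGFs are peptide hormones that drive growth and survival through the receptor tyrosine kinase IGF1R. Binding proteins hold IGFs in the extracellular fluid, lengthen their life there and either keep them from the receptor or deliver them to it. Proteases that cut the binding proteins set the ligand free. IGFBP1 to IGFBP6 bind IGFs tightly, whereas IGFBP7 binds them weakly. Several members also act on cells without IGF, through integrins, proteoglycans or nuclear entry, and in breast tumours their levels differ between cell states.

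All 6 genes were lower in POGK cells than in control cells. The largest fall was that of IGFBP3, which was 7.93-fold lower, followed by IGFBP2 (5.15-fold), IGFBP5 (4.16-fold), IGFBP7 (2.20-fold), IGFBP6 (1.49-fold) and IGFBP4 (1.21-fold). Calls rest on edgeR's quasi-likelihood test over 15889 genes with an adjusted p below 0.05. By this rule 6 of 6 were lower and none higher, where 33.3% of all genes tested were called lower and 32.7% higher. At least 2-fold falls were found for 4 of the 6, against 12.7% of all genes tested. The 3 POGK libraries lay below all 3 controls in CPM, counts scaled to library size with a TMM factor that balances the bulk of genes, for 6 of 6, as for 36.8% of all genes tested. Among the members only the call of IGFBP4 depended on the scaling and on the libraries used, as given with its values. With 6 genes chosen by name, and with earlier results of these data known, no test was made of the group as a whole.

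The libraries held 27645789 to 33689230 counts. POGK itself had 1555, 2423 and 1987 counts in control and 26565, 28258 and 23128 with POGK, and reads of the introduced copy and of the resident gene cannot be separated. Of the 4 mesenchymal markers looked up, VIM was the highest, at 3312 to 6872 CPM over the 6 libraries. The 4 summed to 8946 to 11346 CPM in control and 5019 to 5082 CPM in POGK libraries, and the part of this in the members' levels was not tested. EPCAM and ESR1 were at most 0.34 CPM in any library, and ERBB2 was at 66.4 to 87.5 CPM. Of 12 markers of immune, endothelial, erythroid and liver cells, 5 were in the table, and their summed level was 6.56 to 9.13 CPM in control and 6.09 to 7.05 CPM in POGK libraries. Most of that sum was PECAM1 (mean 5.18 in control and 3.97 CPM with POGK). PTPRC was higher with POGK (0.530 and 1.66 CPM), VWF (0.925 and 0.242 CPM) and CD14 (1.06 and 0.552 CPM) were lower like PECAM1, and APOA1 was too low to test. Of the 4 luminal breast markers, KRT18 (means of 125 and 204 CPM) and FOXA1 (1.33 to 1.69 and 2.54 to 2.83 CPM over the libraries) were higher with POGK, and KRT8 (342 and 282 CPM) and GATA3 (8.60 and 4.38 CPM) were lower. Their part in the members' levels was not tested. Control libraries spread more than POGK libraries, with a median coefficient of variation of 10.4% against 2.79% over the 9469 genes whose mean reached 10 CPM. Whether replicates were grown as separate cultures is not stated in the labels, so p-values measure the spread between these libraries, which may be technical. The chi-square per gene, which grows with differences between 2 libraries, was 1.36 to 2.62 for POGK pairs and 22.5 to 49.7 for control pairs. In POGK libraries the coefficient of variation was 0.54% for IGFBP4, 4.06% for IGFBP6 and 1.16% for IGFBP7. Counting alone gives 0.62%, 4.59% and 4.53%. For IGFBP3 it was 14.0% against 10.9%. In RNA from whole cultures, fewer cells making a transcript and less transcript per cell cannot be told apart.

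The 250 bases before the RefSeq start site (GRCh38.p14) are shown for IGFBP3, which fell most, and IGFBP4, which fell least. IGFBP5, which has neither of the marked motifs, is shown as well. The bases are written 5′ to 3′ in the direction of the gene. Capitals mark exact matches to the GC box GGGCGG or the TATA box TATAAA on either strand. The IGFBP3 window is chr7:45921273-45921522 on the minus strand, that of IGFBP4 chr17:40443200-40443449 on the plus strand and that of IGFBP5 chr2:216695550-216695799 on the minus strand. In GENCODE release 44 the IGFBP3 window lies between exons of a longer transcript of the gene, the IGFBP4 window lies outside exons and the IGFBP5 window overlaps an exon of DIRC3-AS1.
IGFBP3: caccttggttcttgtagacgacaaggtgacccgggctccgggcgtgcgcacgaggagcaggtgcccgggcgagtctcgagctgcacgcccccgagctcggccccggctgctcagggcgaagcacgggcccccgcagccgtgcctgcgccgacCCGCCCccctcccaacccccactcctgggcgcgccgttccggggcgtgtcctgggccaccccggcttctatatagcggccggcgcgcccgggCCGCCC
IGFBP4: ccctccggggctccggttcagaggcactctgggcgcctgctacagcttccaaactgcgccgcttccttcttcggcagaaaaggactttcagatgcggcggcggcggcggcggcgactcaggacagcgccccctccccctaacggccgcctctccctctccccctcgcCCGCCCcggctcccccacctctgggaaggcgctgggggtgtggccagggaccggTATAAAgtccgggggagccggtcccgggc
IGFBP5: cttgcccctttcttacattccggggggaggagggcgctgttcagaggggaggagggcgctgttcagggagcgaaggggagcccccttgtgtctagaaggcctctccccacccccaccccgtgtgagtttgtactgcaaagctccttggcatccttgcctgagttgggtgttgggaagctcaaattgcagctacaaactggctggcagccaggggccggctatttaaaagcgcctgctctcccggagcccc

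The IGFBP3 window was 76.0% G and C with 32 CpG dinucleotides and held 2 GC boxes. The IGFBP4 window was 71.6% G and C with 24 CpG dinucleotides, with 1 GC box and a TATA box that starts 29 bases before the start site. The IGFBP5 window was 61.2% G and C and held 8 CpG dinucleotides. The IGFBP6 window, not shown, was also 61.2% G and C, with 9 CpG dinucleotides and 1 GC box. It runs from 53097417 to 53097666, past the GENCODE start of the gene at 53097436. The IGFBP2 windows, not shown, were 56.8%, 69.2% and 56.4% G and C. The first ends at 216632827, before the GENCODE start of the gene at 216632828. Those from 216633170 and 216659317 lie inside the gene. Any link of these letters to the fold changes was not tested. Over 35116 RefSeq windows of the same length, the median was 58.0% with 11 CpG dinucleotides. A GC box was found for 4 of the 5 members with a window in the RefSeq table, counting any of 3 starts for IGFBP2. By window this was 5 of 7, against 42.6% of all windows. The exact letters TATAAA were found for 1 of the 5. By window this was 1 of 7, against 10.7% of all windows. Related letters, such as TATATA in the IGFBP3 window and TATTTAAA in the IGFBP5 window, were not searched. CCAAT was found for 1 of the 5, at 1 of the 3 starts of IGFBP2. By window this was 1 of 7, against 32.0% of all windows. ACGTG, the core of the hypoxia response element, was found for none of the 5 and in 18.5% of all windows. No motif searched contains another, and a match is a description of letters, not a measured site. IGFBP7 has no window in that table.

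IGFBP3 encodes the main IGF carrier of serum, where it forms a complex with IGF and the acid-labile subunit. It lies on chromosome 7 from 45912245 to 45921874 on the minus strand of hg38 (ENSG00000146674; GENCODE release 44). Control replicates 1 to 3 held 653, 512 and 498 counts, POGK replicates 99, 93 and 62. On the CPM scale these were 26.3, 16.3 and 16.8 against 2.77, 2.57 and 2.09. Control replicate 1 stood above the other controls, and even the lowest control was 5.91 times the highest POGK library. The log2 fold change was -2.99 (SE 0.22, 95% interval -3.48 to -2.50; edgeR adjusted p = 1.06e-05). Without control replicate 1 it was -2.73. Of the 15889 genes tested, 209 (1.32%) had a more negative log2 fold change.

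IGFBP2 and IGFBP5 are neighbours on chromosome 2. IGFBP2, a carrier that also binds integrins, runs on the plus strand from 216632828 to 216664436 (ENSG00000115457). IGFBP5, which attaches to extracellular matrix and is known from bone and mammary involution, runs on the minus strand from 216672105 to 216695549 (ENSG00000115461). They point towards each other and their ends are 7668 bases apart.

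IGFBP2 had 84, 87 and 78 counts in control and 21, 15 and 21 with POGK, or 3.38, 2.78 and 2.63 CPM against 0.587, 0.415 and 0.708 CPM. The POGK libraries lay apart from every control library. The log2 fold change was -2.36 (SE 0.23, 95% interval -2.89 to -1.84; edgeR adjusted p = 4.26e-05). IGFBP5 had 66, 72 and 76 counts in control and 22, 24 and 15 with POGK, or 2.66, 2.30 and 2.56 CPM against 0.615, 0.663 and 0.506 CPM. Here too the groups did not overlap. Its log2 fold change was -2.06 (SE 0.20, 95% interval -2.50 to -1.61; edgeR adjusted p = 3.74e-05). Both genes were weakly expressed, and in POGK cells their coefficients of variation, 25.9% for IGFBP2 and 13.5% for IGFBP5, compare with 22.9% and 22.2% from counting alone. Each of the 6 genes lay above the filter on low counts, about 0.31 CPM, in all 3 libraries of either group, so none entered the test through 1 group alone.

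Within a library, where scaling plays no part, IGFBP2 had 1.27, 1.21 and 1.03 counts for each count of IGFBP5 in control and 0.955, 0.625 and 1.40 with POGK. The groups overlapped in this ratio (two-sided exact permutation p = 0.6, where 0.1 is the smallest possible). With 15 to 24 counts per gene in a POGK library, the ratio there is imprecise. Per length, IGFBP2 lay above IGFBP5 in every control library, at 0.554 to 0.713 against 0.355 to 0.411 CPM per kilobase of exon.

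IGFBP7, also known as a matrix and vascular protein, binds IGFs weakly. It covers 79613 bases of chromosome 4, from 57030773 to 57110385 on the minus strand (ENSG00000163453). Control replicates 1 to 3 held 855, 978 and 877 counts, POGK replicates 515, 514 and 431, or 34.4, 31.2 and 29.5 CPM against 14.4, 14.2 and 14.5 CPM. The lowest control was 2.03 times the highest POGK library. The log2 fold change was -1.14 (SE 0.09, 95% interval -1.35 to -0.94; edgeR adjusted p = 1.58e-05). Its exons share 260 bases with POLR2B, a subunit gene of RNA polymerase II on the other strand. POLR2B rose, from 152 to 209 CPM, with a log2 fold change of 0.46 (edgeR adjusted p = 2.22e-04), and reads from the shared bases cannot be assigned because the strand setting of the counting is not given in the sources used here. Exons of IGFBP5 share 487 bases with DIRC3-AS1 and those of IGFBP7 share 94 with IGFBP7-AS1, both on the other strand, and those RNAs were not analysed here.

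IGFBP6, the carrier that prefers IGF2 to IGF1, lies on chromosome 12 from 53097436 to 53102345 on the plus strand (ENSG00000167779). Control replicates 1 to 3 held 618, 608 and 544 counts, POGK replicates 509, 522 and 396, or 24.9, 19.4 and 18.3 CPM against 14.2, 14.4 and 13.4 CPM. The groups did not overlap, and the lowest control was 1.27 times the highest POGK library. The log2 fold change was -0.57 (SE 0.13, 95% interval -0.86 to -0.29; edgeR adjusted p = 0.0034). With library size alone as scaling it was -0.37, at an edgeR adjusted p of 0.0178.

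IGFBP4, known mainly as an inhibitor of IGF action and as the substrate of the protease PAPPA, was by far the most abundant member. It lies on chromosome 17 from 40443450 to 40457725 on the plus strand (ENSG00000141753). Its counts were 24897, 29202 and 25631 in control and 27472, 28062 and 22799 with POGK, which overlap. On the CPM scale the values were 1002, 932 and 863 against 768, 776 and 769, which do not. The log2 fold change was -0.27 (SE 0.08, 95% interval -0.46 to -0.09; edgeR adjusted p = 0.0152). With library size alone as scaling, which moved the median log2 fold change of all genes to 0.19, it was -0.078, short of the threshold (edgeR adjusted p = 0.234). Without any 1 of the POGK replicates its log2 fold change was -0.27 and did not pass, at edgeR adjusted p-values from 0.0680 to 0.0763. In the ranking of all genes by mean CPM, IGFBP4 was number 136 in control cells and 113 in POGK cells.

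**Figure D1:**
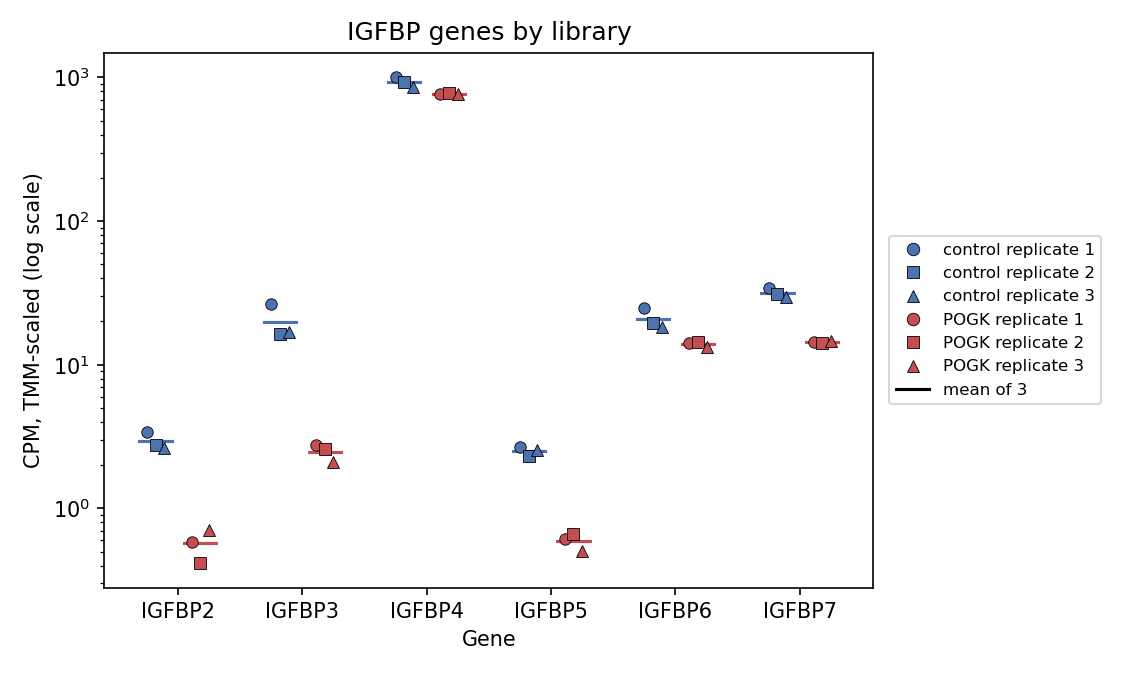
CPM of the 6 IGFBP genes in each library, on a log axis, with control in blue, POGK in red, replicates as circle, square and triangle, and a bar at the mean of 3. For every gene the 3 POGK libraries lie below the 3 control libraries, by the widest gap for IGFBP3 and the narrowest for IGFBP4.

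**Figure D2:**
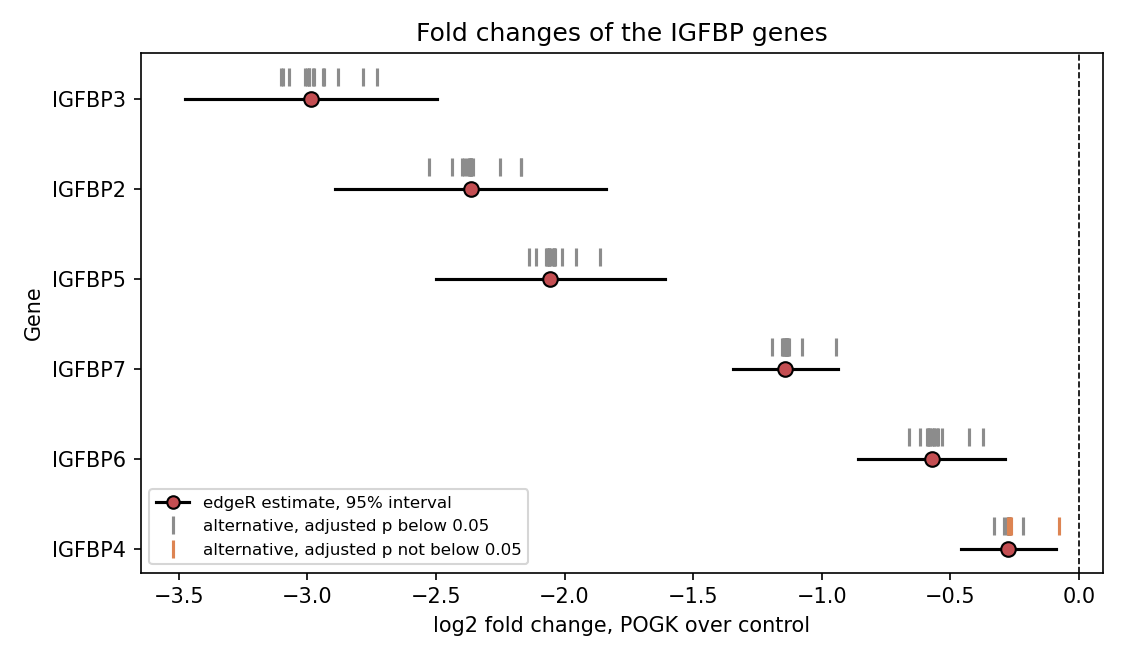
Log2 fold change of POGK over control for each gene, with the edgeR estimate as a point, its 95% interval as a line, and the 14 alternative analyses as ticks above it, grey where the adjusted p was below 0.05 and orange where it was not. Only IGFBP4 has orange ticks, from library size alone and from leaving out each POGK replicate.

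In the authors' deposited table the log2 fold changes were -3.00 for IGFBP3, -2.37 for IGFBP2, -2.06 for IGFBP5, -1.14 for IGFBP7, -0.57 for IGFBP6 and -0.27 for IGFBP4. The adjusted p of IGFBP4 in the authors' deposited table was 0.0172.

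Compared per kilobase of exon, so that long and short transcripts can be set side by side, the levels in control cells covered 3 orders of magnitude. IGFBP4 stood at 423 ± 31.4 CPM per kilobase (SD, n = 3), IGFBP7 at 16.4 ± 1.28, IGFBP6 at 15.5 ± 2.61, IGFBP3 at 4.33 ± 1.23, IGFBP2 at 0.618 ± 0.084 and IGFBP5 at 0.387 ± 0.029. IGFBP7 and IGFBP6 overlapped in control cells, and no other neighbours in this order did. In POGK cells the levels were 350 ± 1.89 for IGFBP4, 10.4 ± 0.42 for IGFBP6, 7.45 ± 0.09 for IGFBP7, 0.542 ± 0.076 for IGFBP3, 0.120 ± 0.031 for IGFBP2 and 0.092 ± 0.012 for IGFBP5. IGFBP6 now lay above IGFBP7 in every library, and IGFBP2 and IGFBP5 overlapped. Using the length of the canonical transcript, which is much shorter than all exons together for IGFBP2 (1414 against 4742 bases), left this order of means as it was in both groups.

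**Figure D3:**
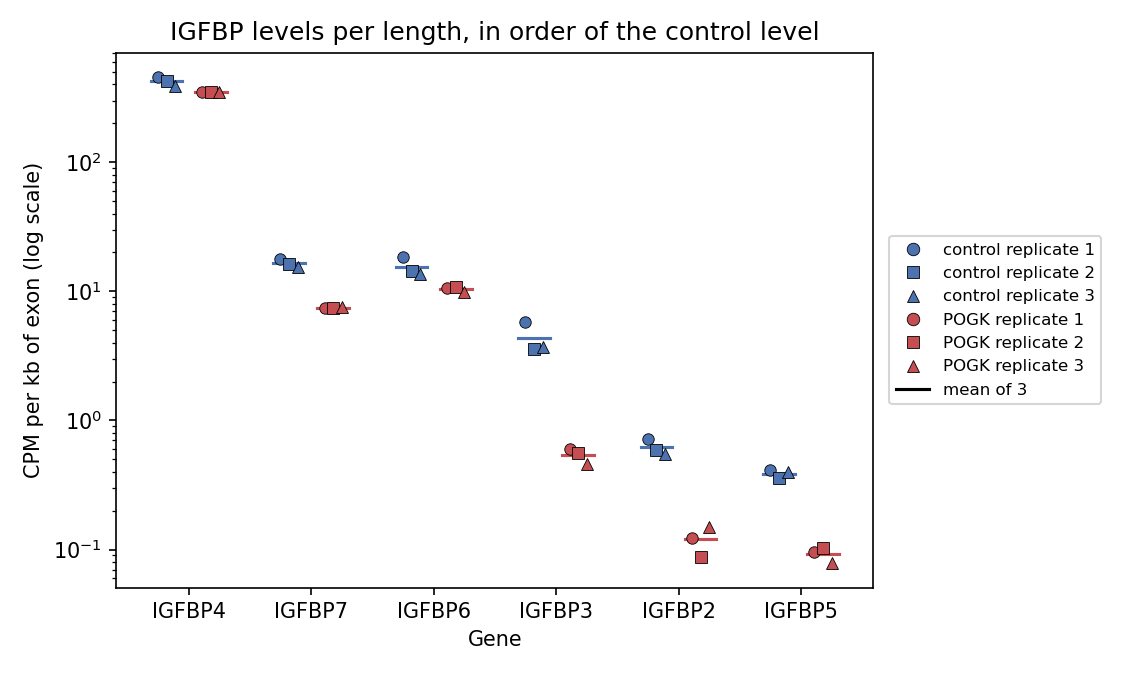
Level of each gene in CPM per kilobase of exon, on a log axis, by library and in the order of the control means, with symbols and colours as in the plot of CPM by library. IGFBP4 lies more than a factor of 10 above the next gene in both groups. IGFBP6 and IGFBP7 overlap in control, and IGFBP6 lies above IGFBP7 in all POGK libraries.

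IGFBP4 made up most of the family. Its share of the summed level per kilobase of the 6 genes averaged 91.9 ± 0.53% in control and was 94.9 ± 0.10% with POGK (SD, n = 3). IGFBP7 held 3.57 ± 0.04% and 2.02 ± 0.03%, IGFBP6 held 3.36 ± 0.31% and 2.83 ± 0.10%, and IGFBP3 held 0.934 ± 0.197% and 0.147 ± 0.021%. These shares are descriptions and were not tested. The summed level of the 6 genes was 460 ± 36.3 CPM per kilobase in control and 368 ± 2.06 in POGK cells. In CPM not scaled to length, the 6 genes summed to 1010 ± 80.4 in control and 803 ± 4.35 in POGK cells. On that scale, unlike the shares above, the other 5 genes without IGFBP4 summed to 77.8 ± 11.99 CPM in control and 32.0 ± 0.73 CPM in POGK cells, 2.43 times less.

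The proportions between members were read as ratios of counts within a library. For each count of IGFBP3 there were 38.1, 57.0 and 51.5 counts of IGFBP4 in control and 277, 302 and 368 with POGK. IGFBP6 had 0.723, 0.622 and 0.620 counts for each count of IGFBP7 in control and 0.988, 1.02 and 0.919 with POGK. Of the 15 ratios between 2 members, 13 gave a two-sided exact permutation p of 0.1, the smallest that 3 against 3 libraries allow, or 0.115 after Benjamini-Hochberg adjustment over the 15. The ratio of IGFBP2 to IGFBP3 (exact permutation p = 0.2) and that of IGFBP2 to IGFBP5 overlapped between the groups. No ratio can pass 0.05 in this design.

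Leaving out the members themselves, the nearest protein-coding genes that do not overlap a member numbered 9, of which 7 were tested. Of the 7, 4 were lower, 1 was higher and 2 did not pass, where 33.3% of all genes tested were lower and 32.7% higher. POLR2B, which overlaps IGFBP7 and rose, is not among them. NOA1, a mitochondrial GTPase gene 53.2 kb from IGFBP7, fell from 89.1 ± 7.53 to 42.8 ± 1.60 CPM. RPL37A, a ribosomal protein gene 53.6 kb from IGFBP2, had a log2 fold change of -1.11, and ADGRL3, an adhesion receptor gene 4090 kb from IGFBP7, one of -0.86. TNS3, 1353 kb from IGFBP3, had one of -0.18, which became 0.01 with library size alone and did not pass under 7 of 14 alternatives. On either side of IGFBP4, TOP2A, the topoisomerase of dividing cells, did not pass at 0.08 (0.27, passing, with library size alone), and TNS4, a tensin, rose with 1.09. The call of TNS4 was lost without control replicate 3, at an edgeR adjusted p of 0.0783, and without any 1 of the POGK replicates, at 0.0512 to 0.0606. SPRYD3, beside IGFBP6, had 0.11 and did not pass, but passed with library size alone at 0.31 and without control replicate 1 at 0.22. TNP1, beside IGFBP5, and SOAT2, beside IGFBP6, were not analysed here.

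The rest of the IGF axis was read from a list of 66 genes by role, of which 56 were in the table and 53 were tested. Of these, 34 fell, 8 rose and 11 did not pass. These are 64.2% lower and 15.1% higher, against 33.3% and 32.7% of all genes. Their median log2 fold change was -0.42, and that of all genes tested 0.0025, while the 6 members had a median of -1.60. With library size alone as scaling 28 were lower and 12 higher, and over all genes the split moved from 5285 lower and 5202 higher to 3925 lower and 6575 higher. Of the 34, PAPPA, ADAM28 and H19 entered the test through the control libraries alone, as given with their values.

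The ligand genes IGF1, IGF2 and INS were not analysed here, nor were INSRR, an insulin receptor-related gene, and IGFALS, the acid-labile subunit. All 3 tested receptors fell, where 33.3% of all genes tested were lower. IGF1R, the signalling receptor, went from 48.5, 50.4 and 52.1 CPM in control libraries to 39.9, 38.6 and 36.9 CPM in POGK libraries, a log2 fold change of -0.39 (edgeR adjusted p = 0.0013). With library size alone it was -0.20 and did not pass, at 0.0689. IGF2R, which takes up IGF2 for breakdown in lysosomes, fell from 175 ± 10.5 to 106 ± 2.89 CPM, and INSR, the insulin receptor, from 63.5 ± 5.95 to 32.0 ± 0.64 CPM.

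Genes of proteases that cut binding proteins were lower for 7 of 9 and higher for 1, or 6 and 1 with library size alone. With TMM scaling this is 77.8% lower and 11.1% higher, against 33.3% and 32.7% of all genes tested. CTSD, the lysosomal and secreted protease cathepsin D, fell from 598, 435 and 471 CPM in control libraries to 105, 104 and 106 CPM in POGK libraries. C1S, a complement protease that can cut IGFBP5, fell 2.73-fold. PAPPA, chosen after its values were seen because it cuts IGFBP4, fell from 0.806 ± 0.177 to 0.158 ± 0.017 CPM. It had 25, 21 and 22 counts in control and 6, 5 and 5 with POGK, where it lay below the filter of about 0.31 CPM. PAPPA thus entered the test through the control libraries alone. So did ADAM28, also among the 7, at 0.224, 0.332 and 0.270 CPM with POGK. ADAM12, chosen like PAPPA after its values were seen, as the protease that rose, had a log2 fold change of 0.52. The inhibitors of PAPPA, the stanniocalcins STC1 and STC2, fell 2.88-fold and 3.63-fold. STC2 went from 499 ± 73.5 to 138 ± 3.18 CPM.

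Of 7 tested genes whose proteins carry an IGFBP-type domain, 3 fell and 2 rose, or 42.9% and 28.6%, near the 33.3% and 32.7% of all genes tested. With library size alone this became 2 lower and 3 higher. The split of all genes moved likewise, from 5285 lower and 5202 higher to 3925 lower and 6575 higher. CCN5 fell 18.3-fold, from 18.6 ± 4.23 to 0.999 ± 0.311 CPM, whereas CCN2, a matricellular growth factor, rose 1.78-fold, from 59.8 ± 0.31 to 107 ± 2.56 CPM. All 5 tested partners of binding proteins fell, where 33.3% of all genes tested were lower. The 5 were also lower with library size alone. LRP1, an endocytic receptor that binds IGFBP3, fell from 354, 223 and 216 CPM in control libraries to 19.7, 18.1 and 19.8 CPM in POGK libraries, and RXRA, a nuclear receptor that binds IGFBP3, fell 1.72-fold.

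Downstream of the receptors, 5 of 8 adaptor genes fell and 1 rose, and with library size alone 4 were lower and 1 higher. With TMM scaling this is 62.5% lower and 12.5% higher, against 33.3% and 32.7% of all genes tested. Over all genes, 5285 were lower and 5202 higher with TMM scaling, and 3925 and 6575 with library size alone. IRS2 fell from 100.0 ± 21.6 to 21.7 ± 0.49 CPM and IRS1, the other main docking protein of IGF1R and the insulin receptor, fell 2.34-fold. The PI3K-AKT arm was mixed, with 7 of 15 lower, 3 higher and 5 that did not pass, and with library size alone 6 lower and 6 higher. FOXO3 and FOXO1, transcription factors that AKT holds out of the nucleus, fell 3.88-fold and 2.51-fold. Among the IGF2 mRNA-binding proteins and the noncoding RNA of the IGF2 locus, 2 of 4 were lower and 1 higher, and with library size alone 1 and 1. H19, the imprinted RNA beside IGF2, had 297, 227 and 321 counts in control libraries and 9, 11 and 5 in POGK libraries, a log2 fold change of -5.32 (edgeR adjusted p = 3.61e-06). In POGK libraries it stood at 0.252, 0.304 and 0.169 CPM, near or below the filter of about 0.31 CPM. H19 thus entered the test through the control libraries alone, and the size of its fall rests on few POGK counts. IGF2BP3 rose 3.29-fold, from 4.12 ± 0.72 to 13.6 ± 1.22 CPM.

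**Figure D4:**
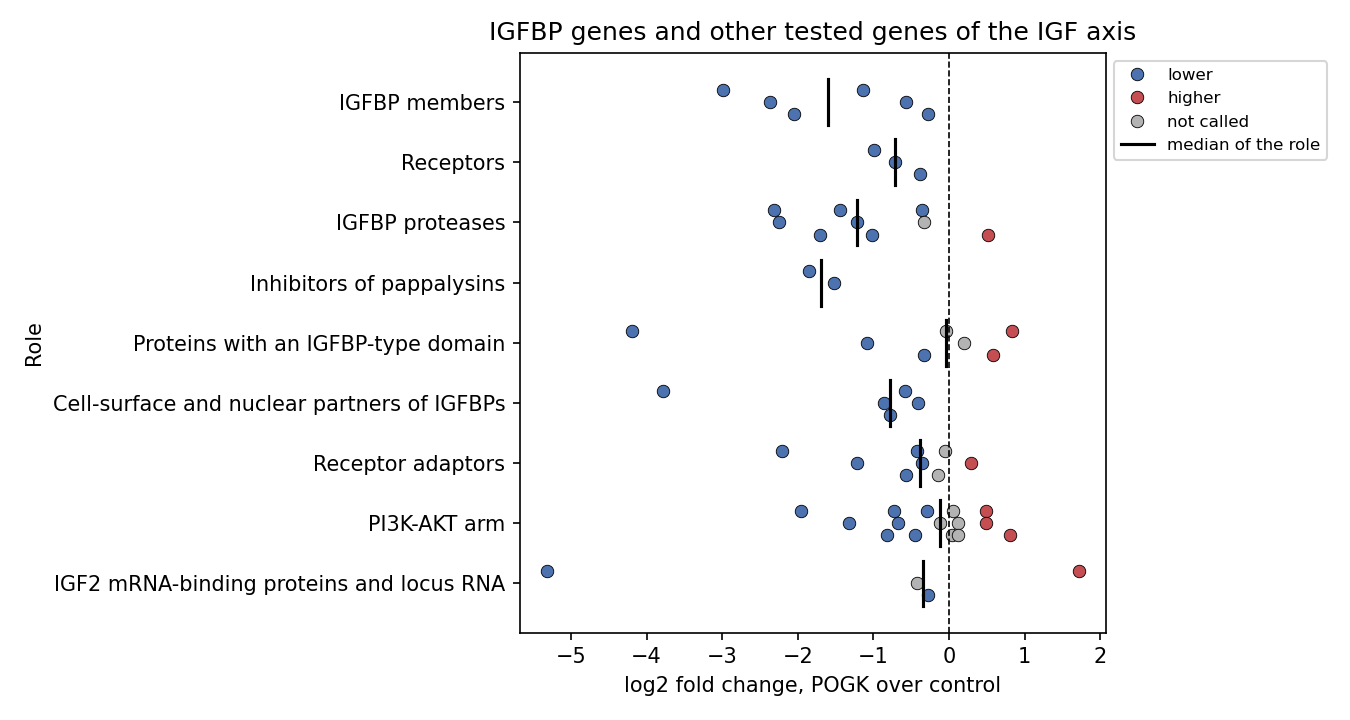
Log2 fold change of POGK over control for the 6 IGFBP genes and the 53 other tested genes of the IGF axis, by role, with blue for lower, red for higher and grey for genes that did not pass, and a bar at each median. The IGFBP genes, receptors, inhibitors of pappalysins and partners lie wholly below 0, while the other roles hold genes on both sides.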

How the data were processed

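RNA was measured by sequencing of rRNA-depleted libraries, 3 per group. Per the submitters' processing notes the tools were Trimmomatic, STAR, SAMtools, deepTools and featureCounts, with build hg38. For versions, gene annotation and strand setting nothing was found in the labels. The deposited table holds raw counts per Ensembl gene, and the lowest total of a gene was 21. Per the file headers it also holds, from the authors, a normalized signal per library, log2 fold changes, a test score and p-values. Values from those columns are credited to that table in each sentence.

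From the counts, edgeR 4.0.16 (R 4.3.3) was run with TMM scaling, its default filter, robust quasi-likelihood fits and Benjamini-Hochberg adjustment over 15889 genes. Standard errors come from the F statistic. Alternatives were DESeq2 1.42.0, limma-voom 3.58.1 (also with a spread per group), other scalings and filters, a replicate block, and leaving out each of the 6 libraries. The scripts were tested on simulated counts with the same spread in both groups. That setting does not check the calls under the unequal spread of these groups. Positions and lengths come from GENCODE release 44 on the same build.

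The members and the lists were chosen with earlier results of these data known. The text names all members, IGF axis ligands and receptors, the 2 genes with the smallest adjusted p in each other role, the nearest protein-coding neighbours, and the genes with the highest correlation. Counting error alone limits IGFBP2 and IGFBP5 to about 23% and 22% per POGK library.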

Additional observations from a re-analysis of the deposited data

How the results depend on the processing

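Under the 14 alternatives IGFBP2, IGFBP3, IGFBP5, IGFBP6 and IGFBP7 were each lower with an adjusted p below 0.05. IGFBP4 was lower in all 14 and did not pass in 4: at -0.078 with library size alone and without each POGK replicate. With 1 library left out its log2 fold change ran from -0.33 to -0.22, both ends without a control library and both passing. Without a POGK replicate it stayed at -0.27 with a wider standard error, and 5 members were called lower in place of 6. TNS3 turned to 0.0098 with library size alone.

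Shares in the family moved with the length used. With plain counts the control shares were 0.289% for IGFBP2, 1.94% for IGFBP3, 0.249% for IGFBP5, 2.06% for IGFBP6 and 3.14% for IGFBP7. In POGK cells they were 0.0711%, 0.308%, 0.0741%, 1.74% and 1.79%, and 96.0% for IGFBP4. With the canonical transcript, an alternative chosen after seeing the data, control shares were 0.433% for IGFBP2, 1.57% for IGFBP3, 88.7% for IGFBP4, 4.60% for IGFBP6 and 4.66% for IGFBP7. In POGK cells they were 0.107%, 0.252%, 93.0%, 3.93% and 2.68% in the same order.

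Replicate numbers are shared by the groups. Deviations from the group means of same-numbered libraries correlated at 0.154, 0.075 and -0.003. Control replicate 2 and POGK replicate 3 correlated at 0.081. With 3 libraries per group these values cannot settle whether same-numbered libraries were paired. With the replicate block, 5103 genes were lower and 5136 higher, in place of 5285 and 5202, and the 6 members were called lower. Depth limits IGFBP2 and IGFBP5, with 57 and 61 counts over the POGK libraries.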

Other observations

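On the TMM scale all 6 IGFBP genes were highest, among the control libraries, in control replicate 1, as were 34.7% of all genes tested. With library size alone this held for 4 of the 6 and 21.2% of all genes. Control replicate 1 had the smallest TMM factor, 0.885, against 0.959 and 0.963 for the other controls. The POGK libraries had factors of 1.06, 1.07 and 1.07, all above the controls, so this scaling differed between the groups. The median log2 fold change of all genes was 0.0025 with TMM and 0.19 with library size alone. The part of control replicate 1 in the members' levels was not tested beyond leaving it out, which gave log2 fold changes of -2.73 for IGFBP3 and -0.43 for IGFBP6.

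The genes whose log2(CPM + 1) followed each member most closely over the 6 libraries were picked from 11934 protein-coding genes whose mean reached 1 CPM. For IGFBP4 these were JUNB, an immediate early transcription factor, SLC2A8, a sugar transporter, and DR1, a repressor of transcription, at Pearson correlations of 0.998, 0.997 and 0.997. For the other members the closest were UBAC2 (IGFBP2), CSNK1E (IGFBP3), ZFAND5 (IGFBP5), GABARAP (IGFBP6) and KLF3 (IGFBP7). These values describe 6 libraries of 2 groups that share library and scaling, and from 992 genes for IGFBP4 to 2730 for IGFBP3 reached more than 0.95. Of these genes JUNB had the largest fall, from 325, 237 and 176 CPM in control libraries to 98.2, 96.9 and 97.4 CPM in POGK libraries.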
